A study of Mus musculus with 22 samples.

Results

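Transcripts of the proteasome were followed over 24 h in male mouse liver without adiponectin, a hormone of fat cells. Every feature of the array whose gene symbol begins with Psm, a letter from a to g and a number was taken: 50 of 22206 features, with 1 feature per gene. Of these, 48 name proteins of the proteasome, its assembly chaperones or its regulators. The other two symbols, Psmc3ip, a partner of recombinases in meiosis, and Psme3ip1, a protein that binds Psme3, name different proteins and are left out of the counts that follow. Psmb5, a catalytic subunit of the core, was not analysed here.

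All 22 livers came from mice with a global knockout of Adipoq (the allele Adipoqtm1Chan, on a C57BL/6J background), aged 3 to 8 months, with free access to standard chow and 12 h of light in the day. Times are zeitgeber times (ZT), hours after lights on: the light phase holds 4 livers of ZT2, 3 of ZT6 and 4 of ZT10, and the dark phase 4 of ZT14, 3 of ZT18 and 4 of ZT22. Each liver has 1 Clariom S array, and values are expression values read as log2. A letter marks each array within its time (ZT2a), and values follow the order of the letters. Livers of wild-type mice were not analysed here; each comparison is between times of day within the knockout, and none measures an effect of losing adiponectin. The design text gives 3 to 4 mice for each time but ties no array to an animal, so p-values measure the spread between these arrays. In whole liver, a change in the make-up of cells and a change of RNA per cell cannot be told apart.

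The proteasome degrades proteins that carry chains of ubiquitin. Its core is a barrel of stacked rings, with alpha subunits on the outside as a gate and beta subunits within, some of which cut peptide bonds. A regulatory particle sits on the barrel: its base has a ring of ATPases that unfold substrates together with subunits that hold ubiquitin, and its lid removes the ubiquitin chain. In liver and elsewhere the transcription factor NFE2L1 raises the genes of all subunits together when proteasome activity falls, and interferon replaces the catalytic beta subunits by immune counterparts that favour antigen presentation.

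As to the arrays, the lower quartile lay between 3.67 and 3.91 and the median between 5.28 and 5.36. Of the 48 genes 45 lay above the lower quartile in every array. The exceptions were Psmb11 of the thymus (2.48 to 3.61, below it in all arrays), Psma8 of the testis (3.17 to 4.92) and the chaperone Psmg3 (3.41 to 4.72), which lie close to it. Adipoq measured between 3.30 and 4.69. Tff3, a secreted trefoil peptide, reached 10.35 and 11.6 in ZT6b and ZT6c, 13.26 and 13.63 in ZT14b and ZT14d, and 11.42 in ZT22a, against 2.31 to 4.73 elsewhere, so counts are also given without these 5 arrays. That fit keeps ZT6a as the only array of ZT6 and only ZT14a and ZT14c at ZT14, so a call lost there may reflect fewer arrays. Hepatocyte markers averaged between 17.93 and 18.15 over 6 genes in all arrays, of which Alb, Ttr, Apoa1 and Serpina1a lay between 19.21 and 19.87, near the top of the scale. Of the 6, limma called 0 for a 24 h rhythm (1 at an unadjusted p under 0.05) and 1 for any difference among times, Hnf4a, a hepatocyte transcription factor, with means from 12.81 at ZT2 to 13.67 at ZT14 (adjusted p = 0.0208).

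Proteasome transcripts were called rhythmic about as often as all features of the array, and at a lower rate than its brighter features. Of the 48 genes 44 were brighter than the median feature, including all of those called. The difference from the brighter features was not tested. A 24 h rhythm (limma's moderated F test on cosine and sine terms with a 24 h period, adjusted over all features by the Benjamini-Hochberg method, threshold 0.05) was called for 3 of the 48 genes, 6.25%, beside 7.62% of all features and 13.6% of the features brighter than the median. The called genes were Psmd11 of the lid, Psmd4, a ubiquitin receptor of the base, and Psma5 of the core, and all 3 had their highest mean at ZT2. At an unadjusted p under 0.05 there were 10 of 48, 20.8%, against 21.1% of all features. The median fitted span from trough to peak was 1.22-fold over the 48 genes, 1.24-fold over all features and 1.29-fold over the brighter features. The other 45 genes had fitted spans from 1.04-fold to 1.72-fold. Without the 5 arrays of high Tff3 the test called 2 of the 48, Psmd11 and Psmd4, and 5.88% of all features. Quantile normalization gave 5, with Psmb10 and Psme1 beside the 3, where 7.77% of all features were called. A test of the brighter features alone gave 6 of 44, with Psmd9 as well, where 18.7% of those features were called.

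**Figure D1:**
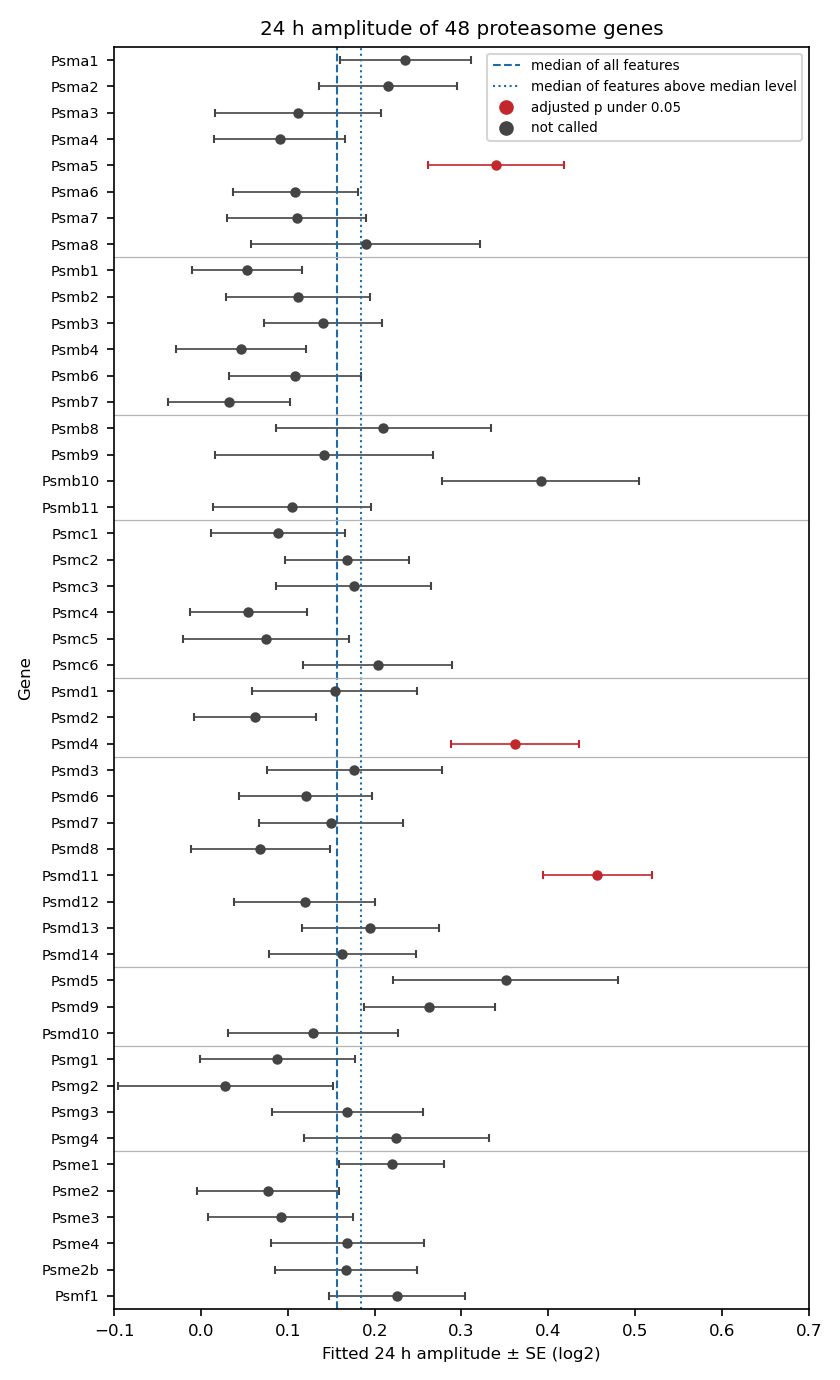
Fitted 24 h amplitude (the log2 distance from the fitted mean to the peak) with its standard error for 48 proteasome genes, grouped by role from the alpha ring at the top to the activators at the bottom; red marks an adjusted p under 0.05. Psmd11, Psmd4 and Psma5 are red, and the dashed and dotted lines are the medians of all features and of those brighter than the median.

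The other tests called between 0 and 2 of the 48 genes. Any difference among the 6 time means was called for 2 of 48 genes, Psmd11 and Psmd4, beside 6.14% of all features. The difference between the average of the 3 light-phase means and that of the 3 dark-phase means was called for Psma5 alone, 1 of 48 beside 5.27% of all features. A 12 h component was called by limma for 0 of 48, beside 0.018% of all features, with 5 of 48 at an unadjusted p under 0.05, 10.4% against 7.56%. Of times 12 h apart, ZT2 against ZT14 gave 2 of 48 (background 4.27%), ZT10 against ZT22 gave 1 (3.3%) and ZT6 against ZT18 gave 0 (1.13%), with 9 at an unadjusted p under 0.05, 18.8% against 13.5%. Between consecutive times limma called 0 of 48 in each of 6 contrasts. The shares of all features called were 0.392% for ZT6 against ZT2, 0.639% for ZT10 against ZT6, 1.72% for ZT14 against ZT10, 0.545% for ZT18 against ZT14, 0.0811% for ZT22 against ZT18 and 0.131% for ZT2 against ZT22. At an unadjusted p under 0.05 the same 6 contrasts gave 4, 7, 4, 5, 2 and 5 of the 48 genes, where 10.3%, 11.5%, 13.3%, 10%, 5.14% and 9.99% of all features passed.

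The data bound how large a difference between the light and dark averages could be, but not the change over the day. For 45 of the 48 genes the 95% interval of that difference, taken per gene and not adjusted, lay within 1.5-fold in both directions. The 3 others were Psma5 (0.22 to 0.66), Psma8, of low level (−0.14 to 0.64) and Psmd5, a chaperone of the base (−0.87 to −0.13). Psmd11 and Psmd4, with fitted 24 h spans of 1.88-fold and 1.65-fold, are among the 45. The share of all features within this bound was not counted. The median residual SD between livers of a time was 0.235 over the 48 genes, 0.316 over all features and 0.298 over the brighter features.

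The lid, whose subunits frame the enzyme that removes ubiquitin chains, held the clearest rhythm and 7 members that were not called. Psmd11, a scaffold that clamps the lid to the base and the core, measured 12.49, 12.50, 12.80 and 12.79 at ZT2, 12.33, 12.06 and 12.36 at ZT6, 11.58, 11.85, 11.72 and 11.99 at ZT10, 11.78, 11.71, 11.71 and 11.74 at ZT14, 11.77, 11.88 and 11.90 at ZT18, and 12.54, 12.35, 12.15 and 12.15 at ZT22. Every array of ZT2, ZT6 and ZT22 lay above every array of ZT10, ZT14 and ZT18. The 24 h fit put the peak of Psmd11 at ZT1.73 ± 0.556 h (SE, n = 22), with an amplitude of 0.46 ± 0.06 (SE) and a 1.88-fold span (limma adjusted p = 5.46e-05). Its mean fell from 12.645 ± 0.173 (SD, n = 4) at ZT2 to 11.735 ± 0.033 (SD, n = 4) at ZT14, a difference of 0.91 ± 0.15 (SE, limma adjusted p = 0.000466). The call of its rhythm held when any 1 array was left out, with adjusted p up to 0.000259, and without the 5 arrays of high Tff3 (amplitude 0.48, adjusted p = 0.000635).

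Beside the rest of the lid, Psmd11 stood highest at ZT2. Its level minus the mean of the other 7 lid genes of the same array was 1.27 ± 0.36 at ZT2 and 0.29 ± 0.17 at ZT14 (SD, n = 4 each), with 0.60 ± 0.29 at ZT6 (SD, n = 3), 0.43 ± 0.18 at ZT10 (SD, n = 4), 0.53 ± 0.12 at ZT18 (SD, n = 3) and 0.85 ± 0.19 at ZT22 (SD, n = 4). These differences between probes have no meaning as levels; their change over the day is the change of Psmd11 relative to its neighbours. It was not tested, as Psmd11 was singled out by its rhythm.

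Psmd13, another scaffold of the lid, ran the other way at ZT2. It measured 12.85, 12.91, 12.90 and 12.10 at ZT2, 13.26, 13.13 and 13.15 at ZT6, 13.24, 13.11, 13.34 and 13.17 at ZT10, 12.98, 13.47, 13.37 and 13.37 at ZT14, 13.10, 12.98 and 12.97 at ZT18, and 13.39, 13.04, 13.16 and 13.16 at ZT22. All 4 arrays of ZT2 lay below all others. ZT2 minus ZT14 was −0.61 ± 0.17 (SE, limma adjusted p = 0.0469), but its 24 h rhythm was not called (adjusted p = 0.272). The p lies close to the threshold. Without ZT2d, the lowest array, the difference was −0.41 (adjusted p = 0.193), and the call was lost in 17 of the 22 omissions of a single array, with adjusted p from 0.0232 to 0.193 over all 22. It was lost too with arrays centred on their median (adjusted p = 0.0632), with the replicate letter as a block (0.0637) and without the 5 arrays of high Tff3 (0.363).

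Psmd8, a lid subunit that is added last in assembly, had the least evidence of a rhythm in the lid (adjusted p = 0.863). It measured 11.98, 11.76, 11.96 and 11.83 at ZT2, 11.77, 12.41 and 11.94 at ZT6, 11.77, 11.65, 11.46 and 11.74 at ZT10, 12.20, 12.32, 12.04 and 12.13 at ZT14, 12.04, 11.90 and 11.84 at ZT18, and 12.01, 11.64, 11.91 and 11.80 at ZT22. Its ZT14 arrays lay above all of ZT2, ZT10 and ZT22, but neither ZT14 against ZT10 nor any other contrast was called. The remaining lid genes, the deubiquitinase Psmd14 and the scaffold subunits Psmd3, Psmd6, Psmd7 and Psmd12, each had their highest mean at ZT6, with spans from 1.18-fold in Psmd12 and Psmd6 to 1.28-fold in Psmd3, and none was called (adjusted p from 0.454 to 0.641).

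**Figure D2:**
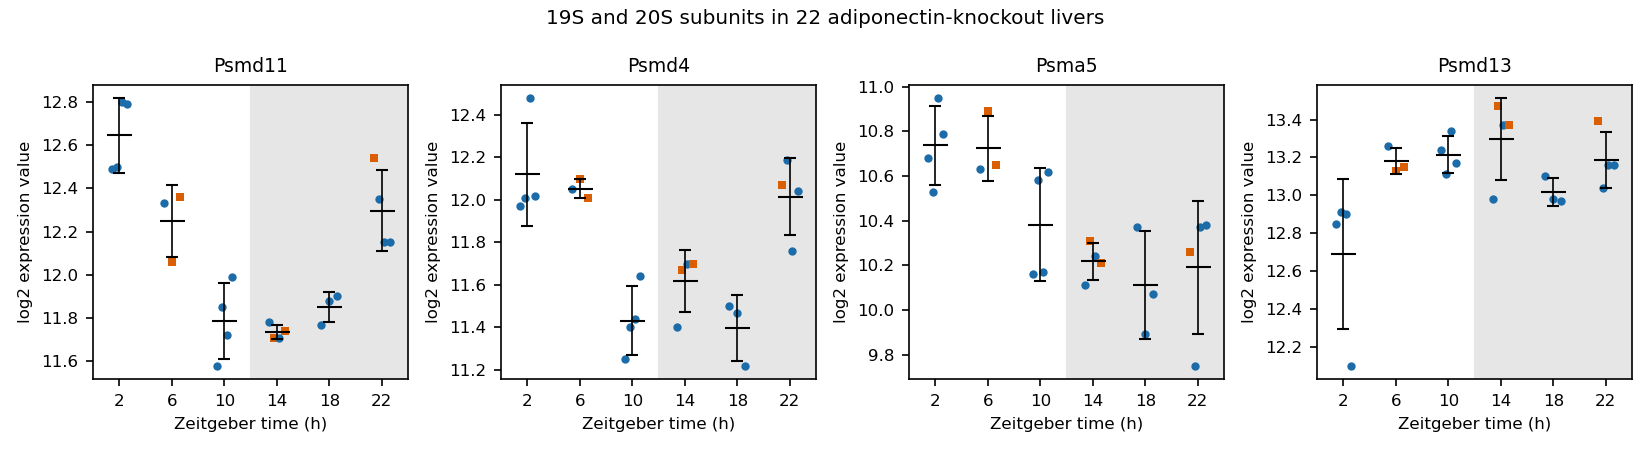
Log2 expression value (y axis, scaled per gene) against zeitgeber time (x axis, dark phase shaded) of Psmd11, Psmd4, Psma5 and Psmd13; each point is 1 liver, orange squares are the arrays with high Tff3, and bars are the mean ± SD of a time. Psmd11 is high at ZT22, ZT2 and ZT6, Psmd4 at the same times, Psma5 at ZT2 and ZT6, and Psmd13 is low at ZT2.

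The base carries large scaffold subunits and ubiquitin receptors beside its ATPases. Psmd4, a receptor that binds ubiquitin chains, measured 11.97, 12.01, 12.48 and 12.02 at ZT2, 12.05, 12.10 and 12.01 at ZT6, 11.25, 11.40, 11.44 and 11.64 at ZT10, 11.40, 11.67, 11.70 and 11.70 at ZT14, 11.50, 11.47 and 11.22 at ZT18, and 12.07, 12.19, 11.76 and 12.04 at ZT22. As in Psmd11, all arrays of ZT22, ZT2 and ZT6 lay above all arrays of the other 3 times. The fitted peak was at ZT2.00 ± 0.813 h (SE, n = 22), with an amplitude of 0.36 ± 0.07 (SE) and a 1.65-fold span (limma adjusted p = 0.00566). The rhythm stayed called when any 1 array was left out (adjusted p up to 0.0192) and without the 5 arrays of high Tff3 (amplitude 0.41, adjusted p = 0.0108). ZT10 minus ZT22 was −0.58 ± 0.16 (SE, limma adjusted p = 0.0403), a call lost in 8 of 22 omissions of a single array (adjusted p from 0.0301 to 0.127), with quantile normalization (0.0839), with the replicate letter as a block (0.0640) and without the 5 arrays of high Tff3 (0.116).

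Psmd2, a scaffold of the base that docks shuttle factors bearing ubiquitin, showed no such course. Its values were 13.04, 13, 13.15 and 13.05 at ZT2, 13.04, 13.07 and 13.06 at ZT6, 12.66, 13, 12.52 and 12.87 at ZT10, 12.84, 13.11, 13.09 and 13.27 at ZT14, 12.77, 12.97 and 12.64 at ZT18, and 13.20, 12.92, 12.92 and 12.75 at ZT22. The times overlapped save that all of ZT2 and ZT6 stood at or above all of ZT10 and above all of ZT18, and the span was 1.09-fold (adjusted p = 0.856). Psmd1, the other large scaffold, had a 1.24-fold span (adjusted p = 0.580).

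In the alpha ring, which gates entry to the core, Psma5 was the 1 called gene of 8. Psma5 measured 10.68, 10.53, 10.95 and 10.79 at ZT2, 10.63, 10.89 and 10.65 at ZT6, 10.16, 10.58, 10.17 and 10.62 at ZT10, 10.11, 10.31, 10.24 and 10.21 at ZT14, 10.37, 9.89 and 10.07 at ZT18, and 10.26, 9.75, 10.37 and 10.38 at ZT22. All arrays of ZT2 and ZT6 lay above all arrays of the dark phase, and those of ZT10 were spread between. Its fitted peak was at ZT4.92 ± 0.810 h (SE, n = 22), later than those of Psmd11 and Psmd4, with an amplitude of 0.34 ± 0.08 (SE) and a 1.60-fold span (limma adjusted p = 0.0164); the difference between the peaks was not tested. Light minus dark was 0.44 ± 0.11 (SE, limma adjusted p = 0.0150). Both calls held when any 1 array was left out, with adjusted p up to 0.0432 and 0.0439. Both were lost without the 5 arrays of high Tff3, a fit in which ZT6a was the only array of ZT6. The amplitude there was 0.35 and the difference 0.43.

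Psma3, with the least evidence of a rhythm among the alpha subunits, varied more between livers of a time than between times. It measured 11.20, 11.61, 12.16 and 11.21 at ZT2, 11.72, 12.06 and 12.01 at ZT6, 11.57, 11.88, 11.21 and 11.52 at ZT10, 11.20, 11.86, 11.50 and 11.45 at ZT14, 11.88, 11.52 and 11.21 at ZT18, and 11.96, 11.43, 11.73 and 11.60 at ZT22. All times overlapped, and the adjusted p was 0.755. Psma1 and Psma2 had their highest mean at ZT6 (12.18 and 11.08) with fitted peaks at ZT4.39 and ZT6.87, but missed the threshold (adjusted p = 0.120 and 0.208). Psma4, Psma6 and Psma7 had spans from 1.13-fold to 1.17-fold, with adjusted p from 0.621 to 0.744.

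For the 3 called genes the 250 bases before the start of transcription are shown, since they share a high mean at ZT2 and a low one in the early or middle dark phase. The sequences are those of RefSeq on GRCm38.p6, 5′ to 3′ on the strand of the gene, and capitals mark the only match among 4 motifs searched in these windows, a CCAAT box read on the reverse strand in Psmd4 (bases −95 to −91 from the start); the windows of Psmd11 and Psma5 held none. Psmd11 lies at chr11:80428365-80428614 on the plus strand, Psmd4 at chr3:95042615-95042864 on the minus strand and Psma5 at chr3:108256676-108256925 on the plus strand.
Psmd11: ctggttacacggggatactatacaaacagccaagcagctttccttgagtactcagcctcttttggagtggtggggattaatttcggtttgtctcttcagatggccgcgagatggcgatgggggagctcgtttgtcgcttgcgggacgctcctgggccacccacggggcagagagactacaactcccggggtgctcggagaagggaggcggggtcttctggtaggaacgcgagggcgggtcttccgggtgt
Psmd4: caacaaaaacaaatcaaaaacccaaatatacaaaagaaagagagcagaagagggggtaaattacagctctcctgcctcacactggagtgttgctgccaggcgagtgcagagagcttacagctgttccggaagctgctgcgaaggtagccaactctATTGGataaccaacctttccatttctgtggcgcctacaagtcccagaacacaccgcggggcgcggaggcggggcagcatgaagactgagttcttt
Psma5: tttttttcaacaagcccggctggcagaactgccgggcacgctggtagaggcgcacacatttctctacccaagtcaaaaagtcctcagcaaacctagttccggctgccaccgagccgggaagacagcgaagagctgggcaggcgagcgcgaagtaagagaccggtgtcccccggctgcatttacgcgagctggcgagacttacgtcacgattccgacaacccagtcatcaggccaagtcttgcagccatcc

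The motifs were searched on both strands in the 250 bases before each start, and 40 of the 48 genes matched the table. The antioxidant response element core TGACNNNGC, the element bound by NFE2L1 and NFE2L2, was found in 4 of these 40 genes (10%) and in 11.5% of all 27025 genes of the table. They were Psmb6 (TGACGGAGC on the plus strand of the gene), Psmd9 (TGACCCCGC, plus), Psmc6 (GCTAAGTCA, the reverse strand) and Psmd12 (GCTGTGTCA, reverse). The E-box CACGTG, bound by the clock activators, stood in 4 of 40 (10%) against 6.86%: Psma4, Psmb10, Psmd9 and Psme3. CCAAT was in 14 of 40 (35%) against 37.5%, and the D-box TTATGNAA, bound by the PAR bZIP factors, in 0 of 40 against 3.63%. The matches in Psmd9, bases −51 to −46 and −31 to −23, do not overlap. A match is a match of letters in this window alone.

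The 6 ATPases of the base, which unfold substrates and open the gate, were not called in any test. Their spans ran from 1.08-fold in Psmc4 to 1.33-fold in Psmc6. Psmc6, with the most evidence (adjusted p = 0.301), measured 11.15, 11.39, 11.70 and 11.33 at ZT2, 11.57, 11.91 and 11.47 at ZT6, 10.82, 11.24, 10.98 and 11.12 at ZT10, 10.50, 11.42, 11.16 and 11.48 at ZT14, 11.24, 11.29 and 10.99 at ZT18, and 11.46, 11.26, 11.23 and 11.16 at ZT22. All of ZT6 lay above all of ZT10, ZT18 and ZT22, and ZT14 spread widest, with ZT14a the lowest array of all.

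Psmc5 had the least evidence among the ATPases (adjusted p = 0.882). It measured 9.53, 9.58, 10.05 and 9.66 at ZT2, 9.56, 9.40 and 9.67 at ZT6, 9.71, 9.46, 8.65 and 9.74 at ZT10, 9.80, 9.83, 9.31 and 9.98 at ZT14, 9.68, 9.68 and 9.56 at ZT18, and 9.94, 9.63, 9.23 and 9.38 at ZT22. All times overlapped, and ZT10c was the lowest array. For 5 of the 6 ATPases, all but Psmc3, the lowest mean was at ZT10, where 15.4% of all features and 19.3% of the brighter ones have theirs; none of these differences passed a test.

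The constitutive beta subunits, which line the chamber, had a median span of 1.12-fold over 6 genes and a largest span of 1.21-fold, and none was called. Psmb3, a structural subunit and the one with the most evidence (adjusted p = 0.404), measured 10.02, 10.38, 10.21 and 10.29 at ZT2, 9.88, 10.24 and 10.07 at ZT6, 9.84, 10.29, 9.76 and 9.95 at ZT10, 9.75, 9.90, 10.02 and 9.79 at ZT14, 10.06, 9.93 and 9.98 at ZT18, and 10.22, 10.11, 9.72 and 9.79 at ZT22. All of ZT2 lay at or above all of ZT14, and the other times overlapped both.

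Psmb7, the subunit with trypsin-like activity, had a span of 1.05-fold (adjusted p = 0.958). It measured 14.03, 13.74, 14.15 and 13.91 at ZT2, 14.08, 13.62 and 14.02 at ZT6, 13.89, 13.85, 13.75 and 14.17 at ZT10, 13.78, 13.97, 14 and 14.19 at ZT14, 14.17, 13.76 and 13.69 at ZT18, and 13.98, 13.52, 13.84 and 14.06 at ZT22. All times overlapped, and the 95% interval of light minus dark was −0.19 to 0.24. Psmb6, with caspase-like activity, measured 12.99, 12.99, 13.21 and 13 at ZT2, 12.99, 12.51 and 12.82 at ZT6, 13.24, 13.13, 12.75 and 12.99 at ZT10, 12.90, 13.10, 13.19 and 13.26 at ZT14, 13.46, 12.81 and 13.10 at ZT18, and 13.06, 12.66, 12.88 and 13.01 at ZT22. Its lowest arrays were ZT6b and ZT22b, and it was not called either (span 1.16-fold, adjusted p = 0.658).

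The immune subunits Psmb8, Psmb9 and Psmb10, which replace the catalytic subunits under interferon, spread more widely than these. Psmb10 measured 7.52, 6.91, 7.39 and 6.67 at ZT2, 6.84, 7.11 and 7.34 at ZT6, 7.40, 7.76, 7.50 and 7.37 at ZT10, 6.89, 8.49, 7.94 and 7.97 at ZT14, 6.66, 6.64 and 6.93 at ZT18, and 6.88, 7.11, 6.75 and 6.81 at ZT22. All of ZT10 lay above all of ZT18 and ZT22, as did 3 of the 4 arrays of ZT14. Its span was 1.72-fold with a fitted peak at ZT11.1 ± 1.20 h (SE, n = 22), and it missed the threshold (limma adjusted p = 0.0754). Leaving out ZT14a, the low array of ZT14, gave an adjusted p of 0.0385, leaving out ZT2a gave 0.0453, and quantile normalization gave 0.0426; without the 5 arrays of high Tff3 it was 0.179.

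Psmb8 measured 7.09, 7.02, 6.95 and 6.96 at ZT2, 7.40, 6.37 and 6.80 at ZT6, 6.95, 7.80, 6.90 and 6.62 at ZT10, 6.46, 8.36, 7.02 and 7.91 at ZT14, 6.96, 6.99 and 7.13 at ZT18, and 6.82, 7.06, 6.70 and 6.82 at ZT22. Psmb9 measured 7.09, 6.81, 6.62 and 7.13 at ZT2, 6.29, 6.01 and 6.20 at ZT6, 6.10, 6.89, 6.27 and 6.05 at ZT10, 6.61, 7.46, 6.24 and 7.34 at ZT14, 6.10, 6.40 and 6.66 at ZT18, and 6.63, 6.55, 6.96 and 6.23 at ZT22. ZT14b and ZT14d were the highest arrays of both genes for ZT14, and ZT10b the highest of ZT10. Neither gene was called (adjusted p = 0.546 and 0.768), and at ZT14 the SD was 0.86 for Psmb8 and 0.58 for Psmb9 (n = 4 each).

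Other transcripts moved with Psmb8 and Psmb9 from liver to liver at ZT14. Psmb10 differed in ZT14c, where it measured 7.94, close to 7.97 in ZT14d and above 6.89 in ZT14a. The mean level of 9 interferon-driven genes of antigen processing (among them Irf1, Tap1 and B2m) was 11.58 in ZT14b and 11.45 in ZT14d, against 10.94 in ZT14a and 11.05 in ZT14c. The mean of 7 lymphocyte markers was 5.47 and 5.4 in ZT14b and ZT14d, against 4.68 and 4.56, and ranged from 4.56 to 5.47 over all arrays. The means of 4 other lists were also higher in ZT14b and ZT14d than in ZT14a and ZT14c: 7.55 and 7.24 against 7.15 and 6.81 for Kupffer cell markers, 8.35 and 8.43 against 7.71 and 8.06 for stellate cell markers, 8.85 and 8.84 against 8.35 and 8.62 for endothelial markers, and 7.06 and 6.97 against 6.64 and 6.75 for cholangiocyte markers. Neutrophil markers were at 4.87 in ZT14b and 4.06 in ZT14d, against 4.13 and 4.33. Single genes of a list did not all move with its mean. Of the endothelial markers Lyve1 measured 8.63 and 8.43 in ZT14b and ZT14d, against 5.59 and 6.59, while Stab2 measured 7.96 and 7.89, against 8.59 and 8.91. Of the cholangiocyte markers Tm4sf4 measured 12.95 and 12.98, against 11.30 and 11.73, while Krt19 measured 3.60 and 3.91, against 4.08 and 4.03. Of the lymphocyte markers Ptprc, the antigen common to leukocytes, lay between 7.06 and 8.53, while Cd3e, Cd79a and Ms4a1 had means of 4.37, 4.36 and 4.08, close to the lower quartile. Of the lymphocyte list 0 of 7 genes and of the interferon list 0 of 9 had a 24 h rhythm by limma's test, and 0 of either list had an unadjusted p under 0.05. ZT14b and ZT14d are also arrays of high Tff3. In the other arrays of high Tff3, ZT6b, ZT6c and ZT22a, the mean of the interferon list was 10.89, 11.05 and 10.99. Psmb8 measured 6.37, 6.80 and 6.82 there. In ZT10b, of low Tff3, the list mean was 11.47 and Psmb8 measured 7.80. The part of these lists and of Tff3 status in the spread of the immune subunits was not tested.

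**Figure D3:**
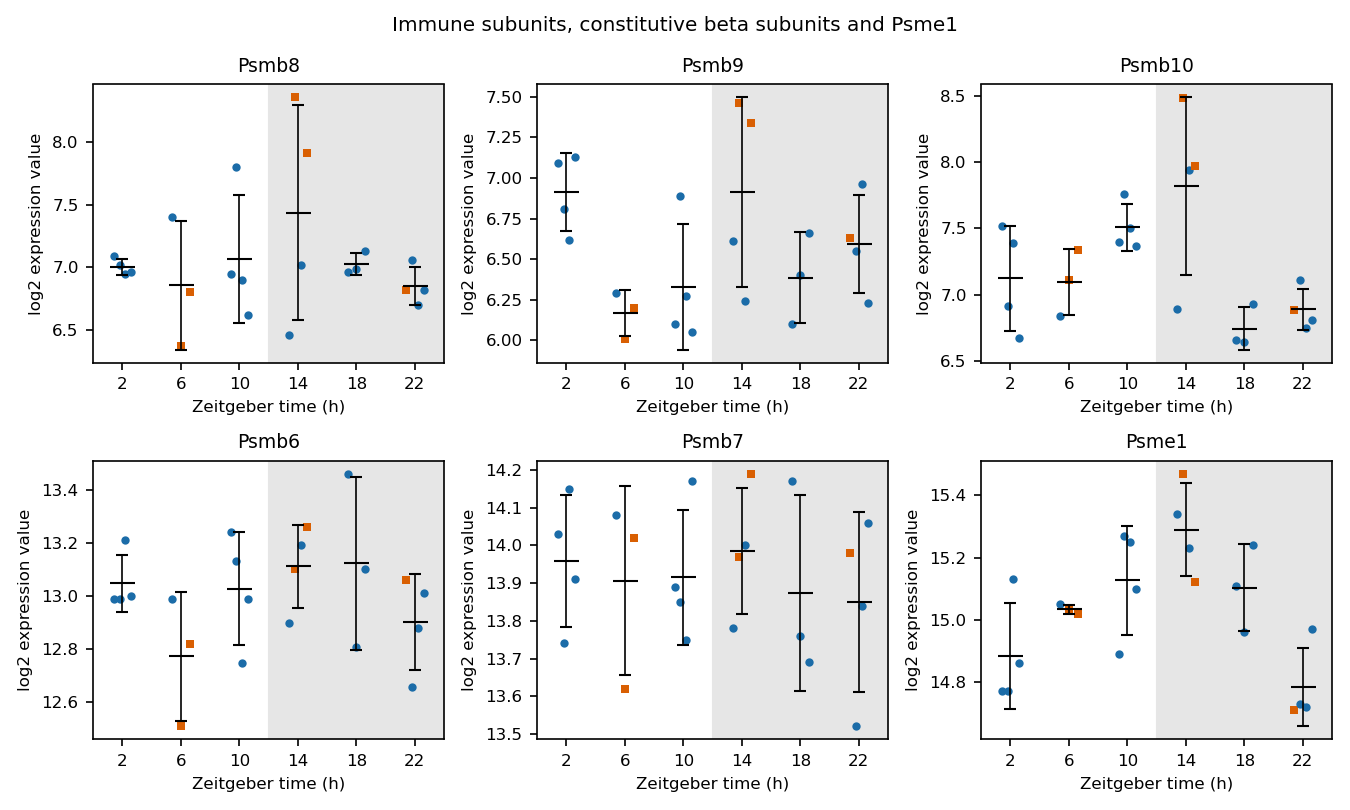
Log2 expression value (y axis, scaled per gene) against zeitgeber time (x axis, dark phase shaded) of 3 immune subunits, 2 constitutive beta subunits and Psme1; points are livers, orange squares arrays with high Tff3, bars mean ± SD of a time. At ZT14 Psmb8 runs from 6.46 to 8.36, while Psmb7 stays between 13.52 and 14.19 over all times.

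Activators open the core without the regulatory particle. Psme1 and Psme2 form the PA28 cap, which interferon induces. Psme1 measured 14.77, 14.77, 15.13 and 14.86 at ZT2, 15.05, 15.03 and 15.02 at ZT6, 14.89, 15.27, 15.25 and 15.10 at ZT10, 15.34, 15.47, 15.23 and 15.12 at ZT14, 15.11, 14.96 and 15.24 at ZT18, and 14.71, 14.73, 14.72 and 14.97 at ZT22. Its ZT14 arrays lay above all of ZT22 and overlapped ZT2 by 1 array, ZT2c. The fitted peak was at ZT12.6 ± 1.15 h (SE, n = 22) with a 1.36-fold span, just short of the threshold (limma adjusted p = 0.0572). The call appeared under 7 of 33 alternative settings, among them quantile normalization (adjusted p = 0.0152) and the omission of ZT2c (0.0336) or ZT10a (0.0334), and the adjusted p was 0.214 without the 5 arrays of high Tff3.

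Psme2, the partner of Psme1 in the cap, measured 10.37, 10.22, 10.30 and 10.29 at ZT2, 10.37, 10 and 10.42 at ZT6, 9.87, 10.31, 10.29 and 10.38 at ZT10, 9.88, 10.73, 10.19 and 10.52 at ZT14, 9.88, 10.04 and 10.46 at ZT18, and 10.24, 9.74, 10.13 and 10.21 at ZT22. All times overlapped, the span was 1.11-fold and the adjusted p 0.833. Psme2b, a copy of Psme2 whose probes may share signal with it, had a 1.26-fold span (adjusted p = 0.410). Psme3, the nuclear PA28 gamma, and Psme4, the activator PA200, were not called (adjusted p = 0.782 and 0.463), nor was Psmf1, the inhibitor PI31 (span 1.37-fold, adjusted p = 0.169).

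Assembly chaperones hold subunits in place while rings form and leave the finished particle. Of the chaperones of the base, Psmd9 measured 7.91, 7.33, 8.06 and 8.03 at ZT2, 8, 7.92 and 8.16 at ZT6, 8.47, 8.38, 8.05 and 8.03 at ZT10, 8.59, 7.98, 8.13 and 8.31 at ZT14, 7.62, 7.55 and 7.94 at ZT18, and 7.74, 7.78, 7.85 and 7.86 at ZT22. All of ZT10 and ZT14 lay above all of ZT18 and ZT22. The fitted peak was at ZT10.5 ± 1.17 h (SE, n = 22) with a 1.44-fold span, and the test was missed (limma adjusted p = 0.0709).

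Psmd10, also known as gankyrin, measured 7.63, 7.87, 7.88 and 7.54 at ZT2, 7.71, 8.19 and 8.26 at ZT6, 7.83, 7.49, 7.84 and 7.93 at ZT10, 7.17, 7.96, 8.31 and 7.95 at ZT14, 7.91, 7.46 and 7.70 at ZT18, and 7.93, 7.01, 7.95 and 7.72 at ZT22. All times overlapped (adjusted p = 0.7). Psmd5 had its lowest value, 6.76, in ZT2d, against 7.81 to 9.01 in all other arrays. Its light minus dark difference was −0.50, with 95% interval −0.87 to −0.13 per gene, and it was not called in the 24 h test (adjusted p = 0.208) or between light and dark (adjusted p = 0.107).

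Chaperones of the core pair up to build the alpha ring. Psmg4 measured 4.64, 4.55, 4.79 and 4.52 at ZT2, 4.57, 4.75 and 5.25 at ZT6, 4.93, 5.36, 4.50 and 5.09 at ZT10, 4.96, 5.56, 4.82 and 5.69 at ZT14, 4.26, 4.66 and 5.56 at ZT18, and 5.27, 5.08, 4.49 and 4.83 at ZT22. Its arrays of ZT14 lay above all of ZT2, at levels not far above the lower quartile (adjusted p = 0.384). Psmg2 measured 8.92, 9.59, 9.75 and 8.47 at ZT2, 9.60, 9.98 and 9.73 at ZT6, 9.76, 9.31, 9.63 and 9.73 at ZT10, 8.69, 9.29, 8.79 and 9.54 at ZT14, 9.92, 9.83 and 9.64 at ZT18, and 9.71, 9.30, 9.71 and 9.48 at ZT22. Its means were low at ZT2 and ZT14 and high at ZT6 and ZT18, but neither the 12 h component (adjusted p = 0.363) nor the 24 h rhythm (0.989) was called. Psmg1 was not called either (adjusted p = 0.823).

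**Figure D4:**
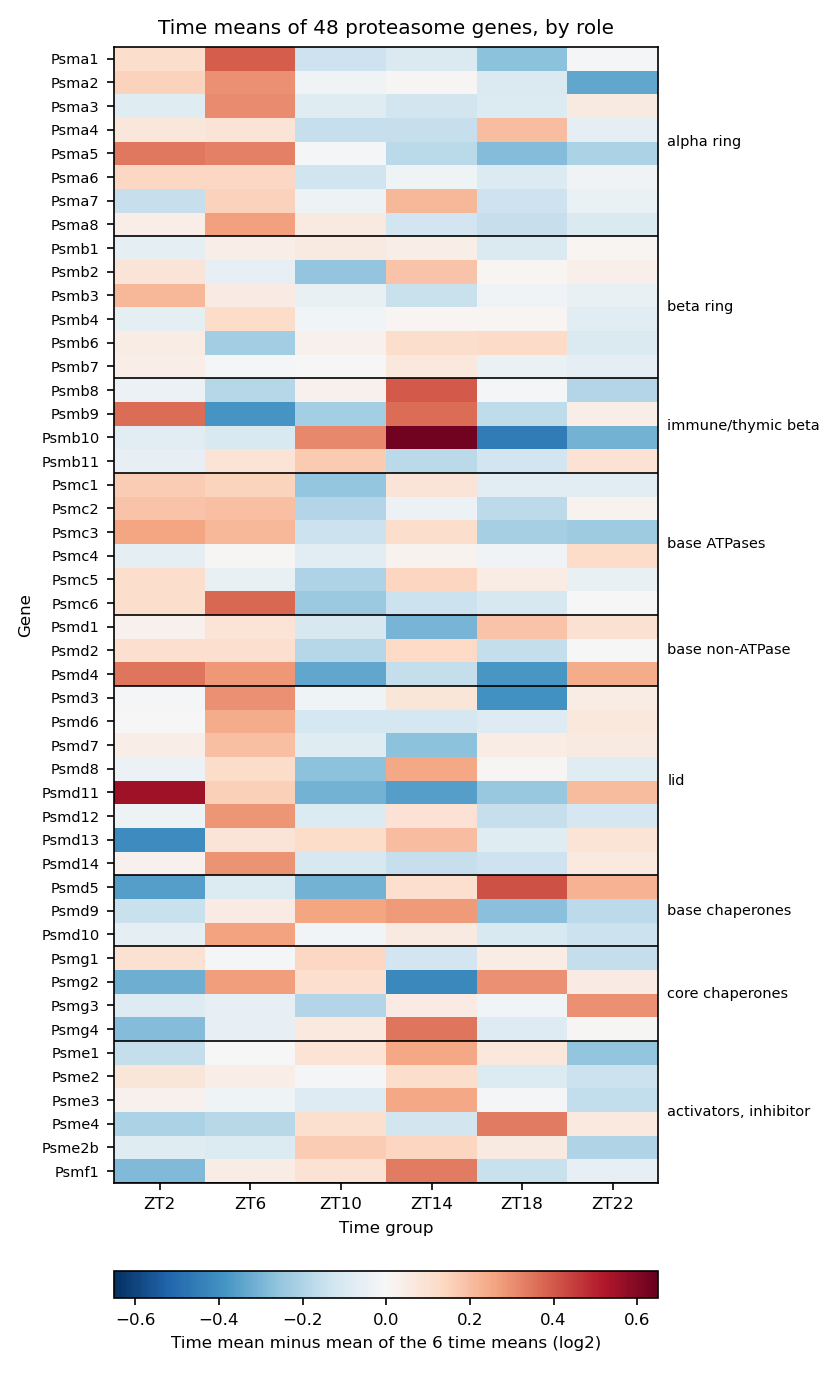
Time means of 48 proteasome genes (rows, grouped by role) at 6 times (columns), each minus the gene's mean of the 6 time means, in log2 units; red is higher and blue lower. Psmd11 is highest at ZT2, 5 of the 6 ATPases are lowest at ZT10, and Psmb10 is highest at ZT14.

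By role the highest means fell at different times, although single genes mostly passed no test. In the alpha ring 5 of 8 genes and in the lid 5 of 8 had their highest mean at ZT6, and among the activators and the inhibitor 4 of 6 had it at ZT14 and 4 of 6 their lowest at ZT22. The lowest mean was at ZT22 in 11 of the 48 genes (22.9%), in 15.5% of all features and in 11.2% of the brighter ones. Over all 48 genes the highest mean was at ZT6 in 14 (29.2%) and at ZT14 in 15 (31.2%), where 21.1% and 16.6% of all features, and 16.1% and 20% of the brighter ones, have theirs. ZT6 and ZT18 have 3 arrays, so their means are less precise. Of the 48 genes 31 were higher in the light by sign and 17 lower, with a median difference of 0.04, beside a median of 0.01 over all features. The share of all features higher in the light by sign was not counted.

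Livers of 1 time differed together in these genes. Against the mean of their own time, 41 of the 48 genes were higher in ZT22a, 40 in ZT2c, 39 in ZT14d and 37 in ZT14b, while 10 were higher in ZT14a, 12 in ZT22b and 13 in ZT2d. These are 85.4%, 83.3%, 81.2% and 77.1% of the genes, where between 48.8% and 50.5% of all features, and between 54.7% and 58.1% of the features brighter than the median, were higher in the same arrays. Of these arrays ZT22a, ZT14b and ZT14d have high Tff3 and ZT2c has low Tff3. In ZT6b and ZT6c, also of high Tff3, 21 and 29 genes were higher, but these arrays make up most of the 3 behind the mean of ZT6. The part of Tff3 status in these shifts was not tested. In the 3 low arrays the brighter features were lower too, with 36.5% above their time mean in ZT14a, 36.8% in ZT22b and 42% in ZT2d, beside 20.8%, 25% and 27.1% of the 48 genes. The median shift of the 48 genes was 0.18 in ZT22a and ZT2c and −0.23 in ZT14a, at least as large as the median amplitude of 0.15. Without ZT2c the rhythms of Psmd11, Psmd4 and Psma5 stayed called, with amplitudes of 0.43, 0.33 and 0.32 (limma adjusted p = 0.000259, 0.0192 and 0.0340).

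**Figure D5:**
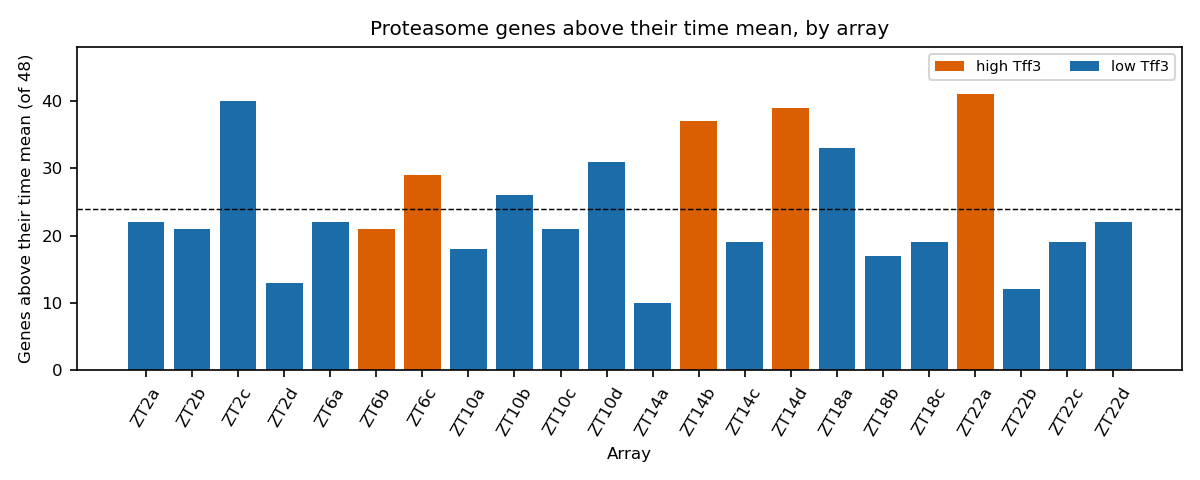
Number of the 48 proteasome genes above the mean of their own time (y axis) in each of 22 arrays (x axis); orange bars are the arrays with high Tff3, and the dashed line is at 24 genes. ZT22a, ZT2c, ZT14d and ZT14b stand highest and ZT14a lowest.

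Genes that work with the proteasome were taken from lists chosen beside the members. Of 11 partners of the particle with a feature here (2 more, Adrm1 and Paaf1, were not analysed here) 1 was called, Zfand5, a zinc finger protein that stimulates the proteasome in wasting muscle. Zfand5 measured 12.74, 12.76, 13 and 12.77 at ZT2, 12.66, 12.68 and 12.32 at ZT6, 11.95, 11.96, 12.34 and 12.28 at ZT10, 11.46, 11.85, 11.90 and 11.98 at ZT14, 12.50, 12.62 and 12.07 at ZT18, and 11.89, 12.02, 12.37 and 12.31 at ZT22. All arrays of ZT2 lay above all others, and those of ZT14 stood among the lowest. Its fitted peak was at ZT2.65 with a 1.71-fold span (limma adjusted p = 0.0151), in the same part of the day as Psmd11 and Psmd4. Pomp, the chaperone that matures the core, had a span of 1.10-fold (adjusted p = 0.825).

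Of 8 genes of ubiquitin and its delivery (6 more were not analysed here) 2 were called: the shuttle factors Ubqln1, with a peak at ZT22.5 and a 1.47-fold span (limma adjusted p = 0.0273), and Ubqln4, with a peak at ZT16.3 and a 1.85-fold span (0.0300). Uba6, an enzyme that activates ubiquitin, was called for any difference among times (limma adjusted p = 0.0428) and between light and dark (−0.51 ± 0.14, SE, limma adjusted p = 0.0323). Ubqln1 was lowest at ZT10, with 9.85, 10.09, 10.02 and 10.35, and highest at ZT22, with 10.51, 10.71, 10.86 and 10.71. Of 7 genes of transcriptional control 0 were called by limma, with 1 at an unadjusted p under 0.05. Nfe2l1, the activator of proteasome genes, lay between 12.30 and 13.41 in all arrays (span 1.17-fold, adjusted p = 0.693), and Nfe2l2 between 6.17 and 7.55 (span 1.295-fold, adjusted p = 0.593). These counts of 1 of 11, 2 of 8 and 0 of 7 stand beside 7.62% of all features.

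Markers of other liver cells were set beside the called genes. Beside 7.62% of all features, limma called a 24 h rhythm for 1 of 5 sinusoidal endothelial markers (Stab2, fitted peak ZT23.3), 1 of 7 Kupffer cell markers (Cd5l, ZT6.46), 1 of 4 neutrophil markers (S100a9, ZT4.77), and 0 of 5 each of the stellate cell and cholangiocyte markers. At an unadjusted p under 0.05 these counts were 3, 2, 1, 1 and 1, where 21.1% of all features passed. Any difference among times was called, beside 6.14% of all features, for the endothelial markers Kdr and Clec4g (limma adjusted p = 0.0214 and 0.0459), the Kupffer cell marker Clec4f (0.0142) and the cholangiocyte marker Sox9 (0.00900). Of the 5 endothelial markers, Stab2, Clec4g, Kdr and Pecam1 had fitted peaks from ZT22.2 to ZT23.5, shortly before those of Psmd11 and Psmd4, and Lyve1 at ZT18.8. The mean level of the endothelial list ran from 8.93 to 9.05 at ZT2, 8.38 to 9.03 at ZT6, 8.59 to 8.85 at ZT10, 8.35 to 8.85 at ZT14, 8.81 to 9.29 at ZT18 and 9.10 to 9.35 at ZT22, and that of the Kupffer list from 7.35 to 7.81, 7 to 7.43, 7.06 to 7.82, 6.81 to 7.55, 7.02 to 7.28 and 7.02 to 7.56. The endothelial list was lower at ZT10 and ZT14 than at ZT2, as were Psmd11 and Psmd4, and at ZT18 it overlapped its range at ZT2. The part of such cells in the rhythms of Psmd11, Psmd4 and Psma5 was not tested.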

How the data were processed

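RNA of 22 livers was hybridised to Clariom S arrays (100 ng of TRIzol RNA each), per the labels' protocols. The deposited table holds 1 value per feature and array; for background correction, summarisation and normalization the method is not stated in the labels. The values, as deposited by the authors, were read as log2, because they lie on a scale of that kind; the log base is nowhere stated, and folds rest on it. Symbols came from the array annotation, in which each gene of the proteasome has 1 feature. The number of arrays limits the precision.

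Models were fitted to all 22206 features in limma 3.58.1 (R 4.3.3) on all 22 arrays: a cosine and sine of 24 h, with 12 h terms added for the 12 h component, and 6 time means for the other contrasts. Adjusted p-values (Benjamini-Hochberg, over the whole array) were called under 0.05. No feature was filtered. Genes given in every array were those called for a 24 h rhythm, those of lowest and highest 24 h p in each role, and the immune subunits with their counterparts; proteasome genes called in another test were named too. The members and lists were chosen with earlier results of these data known. The model code was tested on simulated data. Alternatives were quantile normalization, centring, a filter on dim features, array weights, another variance prior, unmoderated statistics, ranks, a block of the array letter, a threshold of 0.01, and single arrays left out. A fit without the 5 arrays of high Tff3 was added after seeing the data. The labels do not state what the array letters mean. Deviations of arrays with the same letter correlated by -0.00889 on average, which does not settle whether such arrays share a batch. Promoter windows are RefSeq's.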

Additional observations from a re-analysis of the deposited data

Results flagged for a closer look

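The 27 genes searched were the proteasome genes given array by array, Zfand5, Ubqln1 and Ubqln4 called from the lists, and Nfe2l1, Nfe2l2 and Pomp. Their 108 groups of 4 arrays were searched for a liver far from the others by Dixon's criterion. Of these, 7 (6.48%) were found, where chance alone gives about 1 in 20. In ZT2c, Psmd4 stood at 12.48 (others 11.97 to 12.02), Psmb6 at 13.21 (12.99 to 13), Ubqln1 at 10.88 (10.47 to 10.54) and Zfand5 at 13 (12.74 to 12.77). ZT2c is also the array in which 40 of the 48 proteasome genes lay above their time mean. Psmd13 was low in ZT2d, at 12.10 (12.85 to 12.91). Psmd4 was low in ZT14a, at 11.40 (11.67 to 11.70). Psme1 was high in ZT22d, at 14.97 (14.71 to 14.73). Times with 3 arrays were not searched.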

How the results depend on the processing

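The 24 h rhythm was called for 3 of the 48 genes. It was called for 5 under quantile normalization, array weights or ranks, where 7.77%, 8.88% and 4.8% of all features were called. With a trended robust prior or unmoderated it was called for 4, beside 8.19% and 6.82% of all features. At a threshold of 0.01 it was called for 2, without Psma5, beside 3.74% of all features. The count without the 5 arrays of high Tff3 is given above. Among features brighter than the median it was called for 6 of 44, where 18.7% of those features were called. For the tests that follow, calls over all features are given only for the omissions of a single array. Their changed counts are not results about these genes. For any difference among times (2 as reported) there were 4 under quantile normalization, among brighter features or with a trended robust prior, and 0 with ranks. Light against dark (1) gave 2 among brighter features or unmoderated, and 0 at a threshold of 0.01 or without the 5 arrays of high Tff3. ZT2 against ZT14 (2) gave 1 with centred arrays, the replicate block, a threshold of 0.01 or without the 5 arrays, 5 among brighter features, 4 unmoderated and 0 with ranks. ZT10 against ZT22 (1) gave 2 among brighter features, with the trended prior or unmoderated, and 0 under quantile normalization, the replicate block, a threshold of 0.01, ranks or without the 5 arrays. ZT6 against ZT18 (0) gave 2 among brighter features and 1 unmoderated. ZT10 against ZT6 and ZT14 against ZT10 (0 each) gave 1 among brighter features and unmoderated, and ZT18 against ZT14 (0) gave 1 among brighter features and with array weights. Fewer features were tested in the set of brighter ones. Why the counts differ between settings was not tested. With 1 array left out, the counts ran from 3 to 4 for the 24 h rhythm, 2 to 3 for any difference, 1 to 1 for light against dark, 1 to 4 for ZT2 against ZT14, 0 to 1 for ZT10 against ZT22 and for ZT18 against ZT14, and stayed at 0 for the other contrasts and the 12 h component. Of all 22206 features these fits called 1464 to 1691 for the 24 h rhythm and 1078 to 1579 for any difference. They called 825 to 1427 for light against dark and 589 to 1018 for ZT2 against ZT14. For ZT10 against ZT22 they called 532 to 796, and for ZT18 against ZT14 they called 24 to 219. No result called as reported was reversed in direction. With 1 array left out, the fitted peak ran from ZT1.58 to ZT1.93 in Psmd11. It ran from ZT1.575 to ZT2.35 in Psmd4 and from ZT4.29 to ZT5.25 in Psma5. In some genes that were not called the fitted peak moved far, as in Psmb7, from ZT6.60 to ZT21.1. The replicate block kept the 3 rhythms called. For 5 of 22 arrays, the mean correlation of deviations with arrays of other times was highest for their own letter. Quantile normalization moved the share of all calls higher at ZT6 than at ZT18 from 34.5% to 45.1%. A mean over features of a gene could not be run, since each gene has 1 feature.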
